A study of Mus musculus with 20 samples.

Results

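The 8 genes described here, Dazl, Sohlh2, Taf7l, Brdt, Tex101, Dpep3, Tuba3a and Tuba3b, are germline genes that were listed by name as genes silenced by DNA methylation outside the germ line. All 8 were found among the 35975 genes of the tables, and all 8 passed the low-count filter that left 18555 genes for testing. The RNA came from ES-E14TG2a, a line of mouse embryonic stem cells, in a WT and a TKO form, and was selected for poly(A) tails. Stem cells (D0) grew on gelatin without feeders in medium with serum and leukemia inhibitory factor, and cells at D2, D4, D6 and D8 of differentiation to neural progenitor cells (NPC) grew on laminin in N2B27 medium. Each genotype and day had 2 biological replicate libraries, 20 in all, with 26015282 to 38074768 estimated counts per library. The labels do not spell out TKO, how many clones it stands for or whether replicates came from separate cultures, so p-values measure only the spread between these libraries.

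In mammals, CpG methylation at the promoters of a set of germline genes is laid down around implantation and keeps these genes off in somatic cells. The germ line erases this methylation, and the genes then serve in germ cell development and meiosis. The same promoters are also bound by repressors such as the MGA, MAX, E2F6 and PCGF6 complex, which recognises E-box and E2F sequences, and by the H3K9 methyltransferase SETDB1. Methylation itself was not measured in these libraries.

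Levels are given as CPM, counts per 1e+06 after TMM scaling, first for replicate 1 and then for replicate 2. A gene is called higher or lower where its Benjamini-Hochberg adjusted p over all genes tested was under 0.05 in edgeR's quasi-likelihood test. Transcripts of the DNA methyltransferase genes were lower in TKO at D0. Means went from 441 to 78.7 CPM for Dnmt1, from 98.9 to 23.3 CPM for Dnmt3a and from 83.2 to 27.2 CPM for Dnmt3b. Dnmt1 and Dnmt3a were lower in TKO at all 5 days, and Dnmt3b was lower up to D6 and higher at D8. The pluripotency factor Pou5f1 was at 1312 CPM in WT and 1310 CPM in TKO at D0. The TKO D8 libraries stood apart from the course of the others, since their summed level of 10 pluripotency markers was 1586 to 1683 CPM, above 656 to 834 CPM at TKO D6 and 435 to 471 CPM at WT D8.

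At each of the 5 days most of the 8 genes were higher in TKO than in WT, and the difference was wider late than early. At D0, 6 were higher, 1 was lower and 1 did not pass, where 39.3% of all genes tested passed, 19.4% higher and 19.9% lower. At D2, 7 were higher and 1 was lower (35.3% of all genes passed, 18.4% higher and 16.9% lower). At D4, 7 were higher and 1 did not pass (28.3% passed, 15.1% higher and 13.2% lower). At D6, 7 were higher and 1 did not pass (41.3% passed, 20.9% higher and 20.3% lower). At D8, 7 were higher and 1 was lower (67.5% passed, 35.8% higher and 31.8% lower). The median log2 fold change of the 8 genes was 1.98, 2.35, 4.73, 8.25 and 7.07 from D0 to D8, with genes at 0 in WT set to their lower bound, while the median over all genes tested lay between -0.003 and 0.038. Brdt went against the description of the group. It was the gene that was lower at D0, D2 and D8, and the one that did not pass at D4 and D6. In bulk RNA, a change in the share of cells that express a gene and a change in its RNA per cell cannot be told apart.

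**Figure D1:**
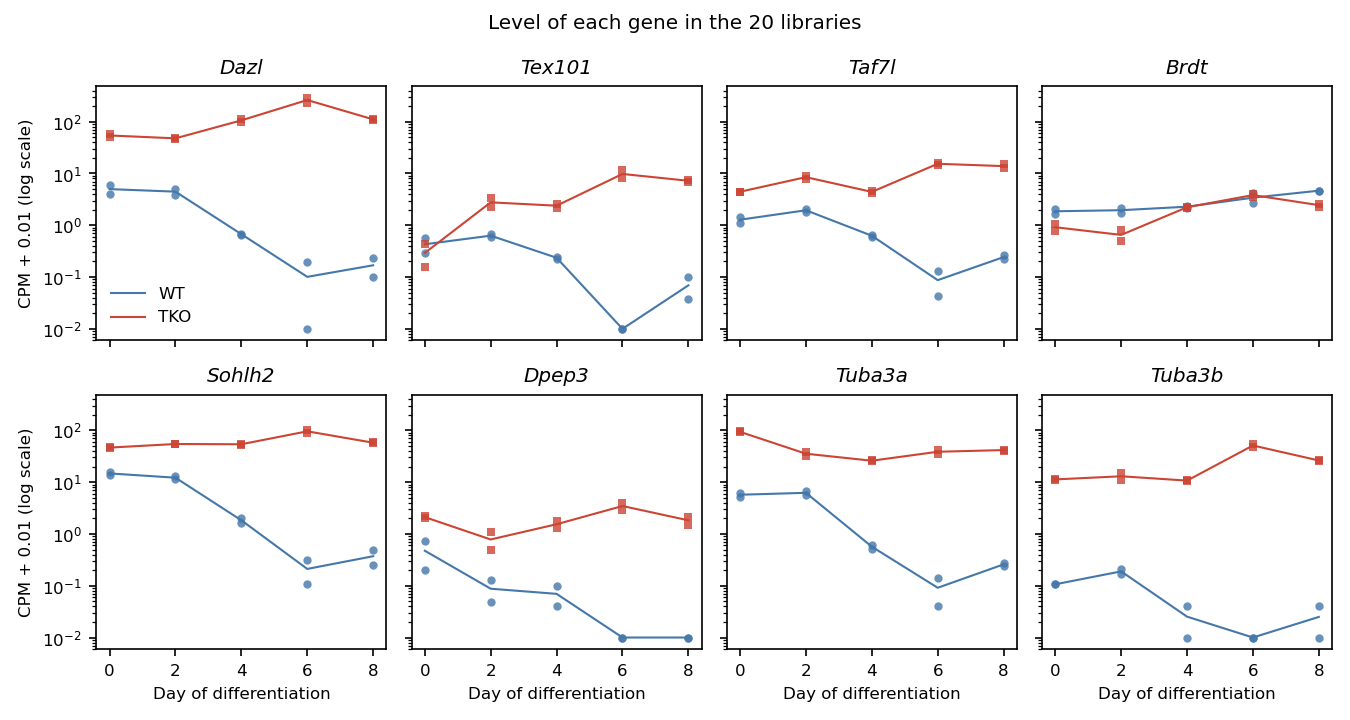
Level of each of the 8 genes (CPM + 0.01, log scale) by day of differentiation, with WT libraries as blue circles, TKO libraries as red squares and lines through the means of the 2 libraries. In 7 genes the WT line is lower at D6 than at D2 and the TKO line lies above it from D2 on. At D6 these TKO means run from 262 CPM for Dazl to 3.45 CPM for Dpep3. In Brdt the TKO line lies below the WT line at D0, D2 and D8 and close to it at D4 and D6.

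Dazl (ENSMUSG00000010592.9; GRCm38 chromosome 17, 50279395 to 50293636, minus strand) encodes an RNA-binding protein that controls translation in germ cells and is needed for germ cells to form gametes. In WT it was at 5.87 and 4.09 CPM at D0, 5.11 and 3.79 at D2, 0.681 and 0.644 at D4, 0.182 and 0 at D6, and 0.228 and 0.0899 at D8. In TKO it was at 58.6 and 49.8 CPM at D0, 47.1 and 48.3 at D2, 97.5 and 114.9 at D4, 231.7 and 292.4 at D6, and 112.6 and 109.1 at D8. Every TKO library lay above every WT library. The log2 fold change between the genotypes was 3.44 (SE 0.176, adjusted p = 1.41e-10) at D0 and 3.44 at D2, 7.32 at D4, 11.37 (SE 0.295, adjusted p = 3.6e-15) at D6 and 9.40 (SE 0.283, adjusted p = 2.13e-14) at D8 in the edgeR quasi-likelihood test. Its size at D6 rests on 6 counts in WT against 16328 in TKO. It was 10.46 without WT D6 replicate 2 and 10.67 with counts from length-scaled TPM. Without WT D6 replicate 1, the only one with counts, WT was at 0. The fitted value of 15.98 then depends on the prior count and is no estimate of size. At D8 it was 10.21 without WT D8 replicate 1.

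Within TKO, the change of Dazl from D0 to D2 did not pass (log2 fold change -0.19, adjusted p = 0.288 in edgeR). It rose to D4 (0.97), D6 (2.27) and D8 (1.03) against D0, and fell by 1.24 on the log2 scale from D6 to D8. Within WT its log2 fold change from D0 was -2.90 at D4, -5.66 at D6 and -4.92 at D8. Most counts belonged in both genotypes to the coding transcript with 11 exons that begins at the outer end of the gene, with 85.55% of the counts of the gene in TKO and 83.81% in WT. A transcript with a retained intron and 7 exons held 10.02% and 11.37%.

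The promoter of Dazl had the most CpG sites of the 8. The 250 bases upstream of its RefSeq start (GRCm38.p6) hold 20, against a median of 14 over the 8 genes and of 6 over all 32851 promoters of the table. The promoter of Tuba3a, which was higher in TKO at all 5 days as Dazl was, had the fewest with 8. Both are shown to set these extremes side by side, 5′ to 3′ on the strand of the gene, with each CpG in capitals. The Dazl stretch is chr17:50293637-50293870 on the minus strand and ends 16 bases short of the RefSeq start, at the GENCODE start of that transcript. The Tuba3a stretch is chr6:125286082-125286331 on the minus strand.
Dazl: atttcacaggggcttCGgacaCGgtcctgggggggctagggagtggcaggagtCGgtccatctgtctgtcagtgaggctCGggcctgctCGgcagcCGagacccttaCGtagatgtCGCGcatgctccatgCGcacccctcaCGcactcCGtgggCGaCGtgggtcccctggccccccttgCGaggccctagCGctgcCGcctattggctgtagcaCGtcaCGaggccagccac
Tuba3a: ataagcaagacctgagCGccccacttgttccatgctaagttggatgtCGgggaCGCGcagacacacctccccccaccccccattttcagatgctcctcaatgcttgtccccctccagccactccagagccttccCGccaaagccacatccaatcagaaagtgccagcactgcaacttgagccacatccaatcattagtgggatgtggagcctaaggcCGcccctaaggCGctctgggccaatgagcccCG

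Sohlh2 (ENSMUSG00000027794.4; chromosome 3, 55182028 to 55209957, plus strand) encodes a helix-loop-helix transcription factor of early spermatogonia and oocytes. It had the highest WT level per length of the 8 genes at D0, with a mean of 9.03 TPM. In WT it was at 15.8 and 13.7 CPM at D0, 13.0 and 11.4 at D2, 1.63 and 2.02 at D4, 0.303 and 0.0993 at D6, and 0.484 and 0.24 at D8. The TKO libraries were at 47.9 and 45.1 CPM at D0, 54.2 and 54.9 at D2, 54.7 and 53.2 at D4, 88.6 and 103.3 at D6, and 59.0 and 56.6 at D8. The genotypes did not overlap at any day. Against WT, the log2 fold change was 1.66 at D0 (SE 0.11, adjusted p = 3.54e-09, edgeR), then 2.17, 4.88, 8.84 and 7.29 at D8 (SE 0.185, adjusted p = 3.04e-15, edgeR). It was 9.85 at D6 without WT D6 replicate 1 and 7.90 at D8 without WT D8 replicate 1.

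Most of that widening was a fall in WT. Against D0, the log2 fold change of Sohlh2 in WT was -3.01 at D4 and -6.14 at D6, while in TKO it was 1.04 at D6. At D2 and D4 its change in TKO did not pass (0.23 and 0.21), and at D8 it stood 0.31 above D0 (adjusted p = 0.0116, edgeR). Its usual partner in the germ line, the related factor Sohlh1, was at a mean of at most 0.235 TPM in every group and was not tested.

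Taf7l (ENSMUSG00000009596.9; X chromosome, 134460118 to 134476490, minus strand) encodes a germ cell counterpart of the general transcription factor subunit TAF7. In WT it was at 1.44 and 1.10 CPM at D0, 1.78 and 2.10 at D2, 0.592 and 0.644 at D4, 0.121 and 0.0331 at D6, and 0.256 and 0.21 at D8. TKO cells had 4.46 and 4.39 CPM at D0, 7.95 and 9.02 at D2, 4.61 and 4.20 at D4, 16.3 and 14.5 at D6, and 15.1 and 12.6 at D8. TKO lay above WT at each day without overlap. Its log2 fold change was 1.80 at D0 (SE 0.191, adjusted p = 1.04e-06, edgeR), 2.12 at D2, 2.83 at D4, 7.53 at D6 and 5.87 at D8 (SE 0.229, adjusted p = 4.72e-13, edgeR). At D6 it was 8.69 without WT D6 replicate 1 and 6.94 without WT D6 replicate 2. Taf7, the broadly expressed counterpart, was far more abundant per length in both genotypes at D0, with means of 41.9 TPM in WT and 45.3 TPM in TKO against 1.09 and 4.02 TPM for Taf7l. Its difference did not pass at D0 (log2 fold change 0.20, adjusted p = 0.0557, edgeR), and it was higher in TKO at D6 (0.57) and D8 (1.21).

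Brdt (ENSMUSG00000029279.15; chromosome 5, 107331159 to 107387058, plus strand) encodes the testis member of the BET bromodomain proteins, which read acetylated histones. In WT it was at 1.63 and 2.08 CPM at D0, 2.17 and 1.72 at D2, 2.37 and 2.18 at D4, 4.15 and 2.65 at D6, and 4.61 and 4.67 at D8. Its TKO level was 1.05 and 0.769 CPM at D0, 0.48 and 0.802 at D2, 2.29 and 2.15 at D4, 3.56 and 4.07 at D6, and 2.27 and 2.60 at D8. TKO lay below WT without overlap at D0, D2 and D8, and the libraries overlapped at D4 and D6. The difference on the log2 scale was -1.02 at D0 (SE 0.281, adjusted p = 0.00772), -1.60 at D2 (SE 0.301, adjusted p = 0.000473) and -0.93 at D8 (SE 0.226, adjusted p = 0.00154) in edgeR. It did not pass at D4 (-0.03, adjusted p = 0.944) or D6 (0.16, adjusted p = 0.605) in edgeR. The call at D0 was lost without WT D0 replicate 2 (-0.84, adjusted p = 0.0662) and without TKO D0 replicate 2 (-0.83, adjusted p = 0.0822) in edgeR.

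In WT, Brdt rose where the other genes fell, and was higher at D6 (log2 fold change 0.88) and D8 (1.32) than at D0. In TKO it was higher at D4 (1.28), D6 (2.06) and D8 (1.42) than at D0. Its counts came mainly from 2 transcripts, a coding one with 19 exons over the whole gene and one with 6 exons that begins inside the gene and is annotated as a processed transcript. At D8, the coding transcript of Brdt had 98.1 and 108.1 estimated counts in WT and 56.1 and 79.7 in TKO. The short one had 63.9 and 47.9 in WT and 8.9 and 5.3 in TKO, so the 2 genotypes were apart in both transcripts, and relatively further in the short one. The division of reads between overlapping transcripts is an estimate and was not tested. The broadly expressed BET genes Brd2 and Brd3 were at means of 333.6 and 57.3 TPM, in that order, in WT at D0, against 1.06 TPM for Brdt.

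Taf7l and Brdt are the only members whose promoter window holds CACGTG, the E-box that MGA and MAX recognise. Taf7l was higher in TKO than in WT at all 5 days. Brdt was lower at D0, D2 and D8 and did not pass at D4 or D6. Both windows are shown with that motif in capitals. In Taf7l (chrX:134476491-134476740, minus strand) it begins 49 bases upstream of the RefSeq start. In Brdt (chr5:107330944-107331158, plus strand, cut at the GENCODE start) it begins 78 bases upstream of the RefSeq start.
Taf7l: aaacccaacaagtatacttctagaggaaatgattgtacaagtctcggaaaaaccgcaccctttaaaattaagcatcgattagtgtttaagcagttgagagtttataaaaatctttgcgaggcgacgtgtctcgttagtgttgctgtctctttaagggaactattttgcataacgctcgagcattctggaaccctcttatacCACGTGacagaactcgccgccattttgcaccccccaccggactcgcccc
Brdt: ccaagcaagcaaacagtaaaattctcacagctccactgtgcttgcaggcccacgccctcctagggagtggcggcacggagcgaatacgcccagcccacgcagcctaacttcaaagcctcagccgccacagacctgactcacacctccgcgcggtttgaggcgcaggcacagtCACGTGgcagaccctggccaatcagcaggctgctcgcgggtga

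Over the 250 bases upstream of RefSeq starts, CACGTG, which reads the same on both strands, was found in 2 of the 8 promoters (25.0%), in 16 of 39 promoters (41.0%) of 32 other germline genes and in 6.0% of all 32851 promoters. TCCCGC on either strand, the core of an E2F6 site, was found in Tuba3a and Tuba3b (25.0%), in 12 of 39 (30.8%) and in 16.9% of all promoters. No promoter of the 8 held both motifs. CCAAT on either strand was found in 5 of the 8 (62.5%) and in 33.8% of all promoters, 4 times in Tex101. The matches in Tuba3b all lie downstream of the GENCODE start of its transcript, since only 44 bases of its window lie upstream of that start. The median ratio of observed to expected CpG was 0.66 in the 8 promoters, 0.67 in the other germline promoters and 0.37 in all. No match of one motif shared bases with a match of another in the 8 windows, and a match is a description of the letters and not of binding.

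Tex101 (ENSMUSG00000062773.6; chromosome 7, 24668007 to 24676675, minus strand) encodes a GPI-anchored surface glycoprotein of male germ cells that sperm need for fertility. It was the only one of the 8 with no call at D0, at 0.287 and 0.552 CPM in WT against 0.418 and 0.146 in TKO (log2 difference -0.55, SE 0.519, edgeR adjusted p = 0.437). That value was -1.5 without TKO D0 replicate 1, -0.95 without WT D0 replicate 1, and -0.01 without WT D0 replicate 2 or without TKO D0 replicate 2, and none of these passed. The difference appeared at D2, at 0.658 and 0.582 CPM in WT and 2.19 and 3.33 in TKO (log2 difference 2.15, SE 0.343, edgeR adjusted p = 0.000133). At D4 it was at 0.237 and 0.215 CPM in WT and 2.15 and 2.61 in TKO (3.37). At D6 both WT libraries were at 0 and the TKO libraries were at 8.11 and 11.4 CPM, at least 203-fold higher, with the 2 WT libraries together set to 3 counts as the floor. At D8 it was at 0.0284 and 0.0899 CPM in WT and 7.55 and 6.89 in TKO (6.85, SE 0.456, adjusted p = 8.19e-10, edgeR). The log2 fold change at D8 was 7.81 without WT D8 replicate 2. All Tex101 counts in TKO were assigned to the transcript with 6 exons that begins inside the annotated gene, and none to the 2 transcripts with 7 exons that begin at its outer end.

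Dpep3 (ENSMUSG00000031898.9; chromosome 8, 105973513 to 105979429, minus strand) encodes a membrane dipeptidase of the testis. Per length, Brdt, and at D0 also Tex101, were the only ones of the 8 with a lower TKO mean than Dpep3 at any day. In WT it was at 0.734 and 0.195 CPM at D0, 0.0387 and 0.117 at D2, 0.0888 and 0.0306 at D4, and 0 in both libraries at D6 and D8. The level in TKO was 2.19 and 2.01 CPM at D0, 1.06 and 0.481 at D2, 1.77 and 1.29 at D4, 4.03 and 2.88 at D6, and 1.503 and 2.144 at D8. The genotypes did not overlap at any day, although levels were low. The log2 fold change was 2.17 at D0 (SE 0.48, adjusted p = 0.00206, edgeR), 3.19 at D2 (SE 0.728, adjusted p = 0.00296, edgeR) and 4.58 at D4 (SE 0.681, adjusted p = 0.00012, edgeR). TKO was at least 73.9-fold higher at D6 and at least 42.1-fold higher at D8. The call at D2 was lost without TKO D2 replicate 1 (2.49, adjusted p = 0.053, edgeR) and was 4.21 without WT D2 replicate 2. The value at D0 was 3.40 without WT D0 replicate 1 and 1.51 without WT D0 replicate 2, and at D4 it was 5.47 without WT D4 replicate 1. Among the other dipeptidases, the neighbouring gene Dpep2 was at a mean of at most 0.192 TPM in every group, and Dpep1 rose in TKO to 11.7 TPM at D8.

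Tuba3a (ENSMUSG00000067702.5; chromosome 6, 125278274 to 125286042, minus strand) and Tuba3b (ENSMUSG00000067338.6; chromosome 6, 145615757 to 145621479, plus strand) encode testis alpha-tubulins. Their coding sequences are both 1350 bases long and differ at 41 of them (96.96% identity), while their 250-base promoter windows align with 61.3% identity. Only 44 of the 250 bases of the Tuba3b window lie upstream of the GENCODE start of its counted transcript. The rest lie downstream of that start. Of the 31-mers of Tuba3a, 45.5% also occur in Tuba3b, and of those of Tuba3b, 38.57% occur in Tuba3a, so the division of reads between the pair is uncertain. The sum of both does not depend on it. None of the other 6 genes shared more than 0.73% of its 31-mers with another gene.

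In WT, Tuba3a was at 6.19 and 5.23 CPM at D0, 6.82 and 5.62 at D2, 0.503 and 0.613 at D4, 0.0303 and 0.132 at D6, and 0.228 and 0.27 at D8. In TKO it was at 96.0 and 91.4 CPM at D0, 38.3 and 32.6 at D2, 26.3 and 25.6 at D4, 35.1 and 42.2 at D6, and 40.8 and 42.5 at D8. It was the highest of the 8 in TKO stem cells, and the only one that was lower at all 4 later days than at D0 in TKO, with log2 fold changes of -1.40, -1.85, -1.28 and -1.17. The log2 fold change between the genotypes was 4.04 at D0 (SE 0.124, adjusted p = 2.32e-13, edgeR), 2.52 at D2, 5.53 at D4, 8.86 at D6 and 7.37 at D8. At D6 it was 8.14 without WT D6 replicate 1 and 10.13 without WT D6 replicate 2.

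Tuba3b was near 0 in WT throughout, at 0.0957 and 0.0975 CPM at D0, 0.155 and 0.204 at D2, 0 and 0.0306 at D4, 0 in both libraries at D6, and 0 and 0.03 at D8. In TKO it was at 11.6 and 10.95 CPM at D0, 15.1 and 10.9 at D2, 10.6 and 10.8 at D4, 47.4 and 54.7 at D6, and 26.5 and 25.97 at D8. It gave the largest difference of the 8 at D0 (log2 fold change 6.81, SE 0.294, adjusted p = 4.24e-11, edgeR) and at D2 (6.13). At D4 the ratio of counts was 711 (95% counting interval 127 to 28100) on 1 WT count, at D6 TKO was at least 1070-fold higher, and at D8 the ratio was 1800 (322 to 71000) on 1 WT count. Within TKO it did not pass at D2 (0.21) or D4 (-0.08), rose by 2.18 to D6 and fell by 0.96 on the log2 scale from D6 to D8.

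The balance of the pair in TKO changed with the days. Tuba3b held 10.81% and 10.69% of the counts of the pair at D0, 28.32% and 25.0% at D2, 28.68% and 29.76% at D4, 57.46% and 56.47% at D6, and 39.38% and 37.92% at D8. The exact binomial intervals at 95% of the D6 libraries, 55.62% to 59.28% and 54.59% to 58.32%, did not reach those of any other day. They cover counting error only, and no test was made of the share. In WT the pair had 200 counts or fewer in a library, of which Tuba3b held between 0% and 10.0%. As a sum, the pair was higher in TKO at all 5 days, with a log2 fold change of 4.18, 2.93, 5.99, 10.07 and 7.99 from D0 to D8.

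**Figure D2:**
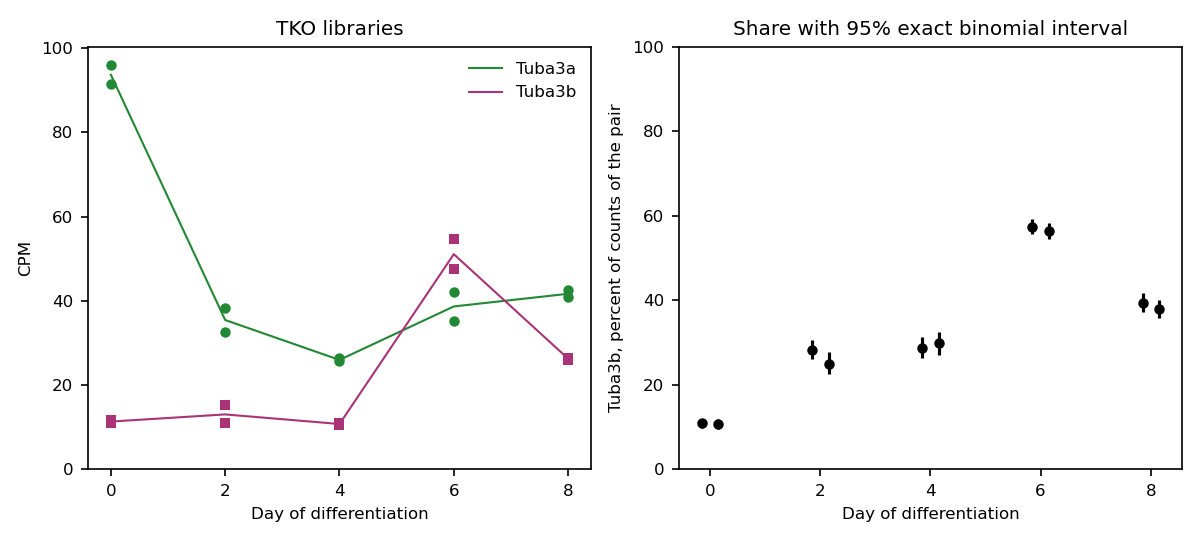
Left, CPM of Tuba3a (green circles) and Tuba3b (purple squares) in the 2 TKO libraries of each day, with lines through the means. Right, the percent of the counts of the pair assigned to Tuba3b in each TKO library with its 95% exact binomial interval, which stands highest at D6 with 57.46% and 56.47%.

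Other alpha-tubulins gave mixed values. Tuba1b, the main alpha-tubulin at D0, was at 1262 TPM in WT and 1280 TPM in TKO and did not pass (log2 fold change 0.11, adjusted p = 0.186, edgeR), although 68.89% of its 31-mers also occur elsewhere, mostly in Tuba1c. Tuba1a, the tubulin of growing neurons, was higher in TKO at D0 (0.57) and lower at D8 (-1.41), with 77.04% of its 31-mers shared. Tuba4a was higher in TKO at D6 (1.68) and D8 (4.14), with means of 4.36 TPM in WT and 68.3 TPM in TKO at D8. Over the 13 tested paralogs of the 8 genes, 3 were higher, 3 were lower and 7 did not pass at D0, with a median log2 fold change of -0.08. At D8, 8 were higher, 3 were lower and 2 did not pass, with a median of 0.65. Among all genes tested, 19.4% were higher and 19.9% lower at D0, and 35.8% and 31.8% at D8.

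Set side by side per length, the order of the genes changed between the genotypes and days. In WT stem cells it was Sohlh2 at 9.03 TPM, Tuba3a at 5.73, Dazl at 3.41, Taf7l at 1.09, Brdt at 1.06, Tex101 at 0.642, Dpep3 at 0.405 and Tuba3b at 0.0835, where neighbours from Taf7l to Dpep3 overlapped. In TKO stem cells it was Tuba3a at 88.7 TPM, Dazl at 32.3, Sohlh2 at 26.8, Tuba3b at 8.92, Taf7l at 4.02, Dpep3 at 1.74, Brdt at 0.499 and Tex101 at 0.4, and Brdt and Tex101 overlapped. At TKO D6 it was Dazl at 197.4 TPM, Sohlh2 at 74.8, Tuba3b at 54.5, Tuba3a at 49.5, Tex101 at 18.9, Taf7l at 17.3, Dpep3 at 3.87 and Brdt at 2.04. The tubulin pair overlapped there, as did Tex101 and Taf7l. In WT at D6 and D8, Brdt was the highest of the 8, with 2.24 and 3.66 TPM.

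**Figure D3:**
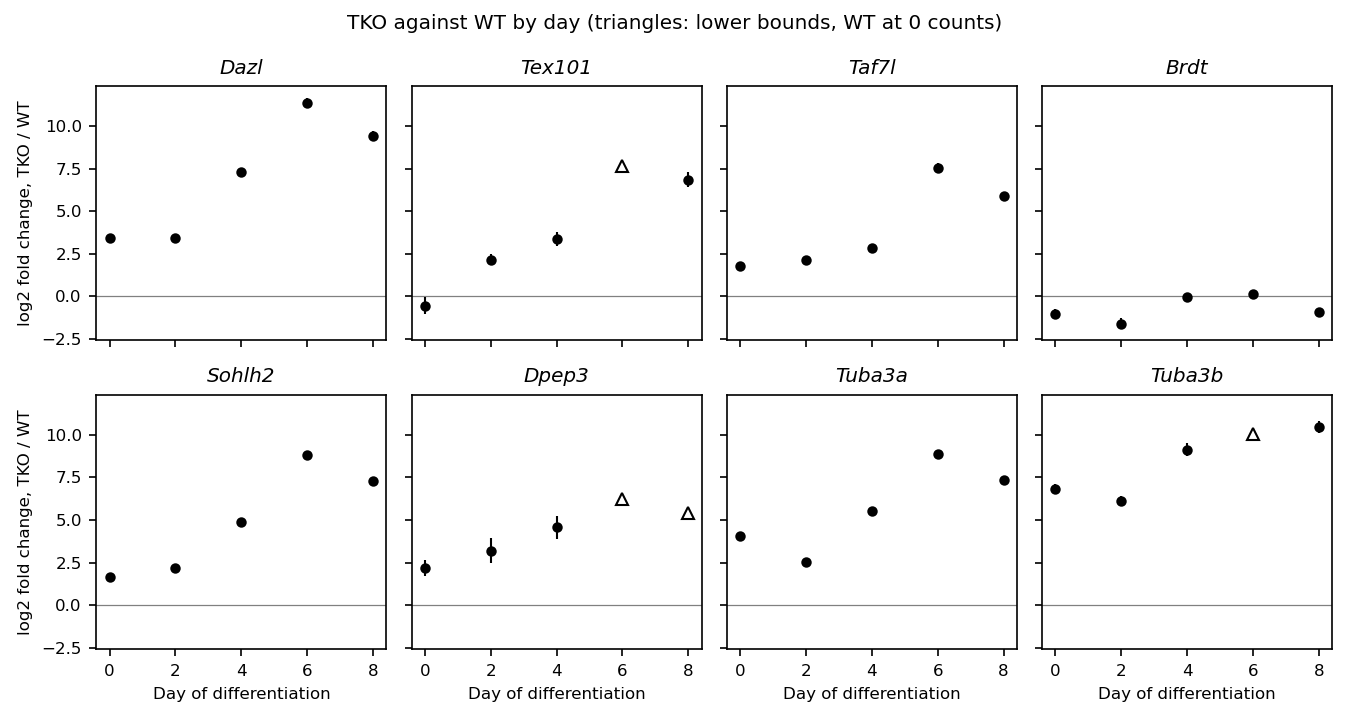
Log2 fold change of TKO against WT for each gene by day. Bars are 1 SE, derived from the edgeR fold change and F statistic, and open triangles are lower bounds where WT had 0 counts. Dazl, Sohlh2, Taf7l and Tuba3a stand highest at D6 (11.37, 8.84, 7.53 and 8.86), Tex101 begins below 0 at D0, and Brdt stays between -1.60 and 0.16.

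The course within each genotype was read against D0. In WT, D2 gave 1 gene higher (Taf7l, 0.62), 1 lower (Dpep3, -2.44) and 6 that did not pass, where 54.7% of all genes tested passed, 25.8% higher and 28.9% lower. Without WT D0 replicate 1, or without WT D2 replicate 2, 1 gene passed. At WT D4, 5 genes were lower and 3 did not pass (64.8% of all genes passed, 31.8% lower). At WT D6, 7 were lower and Brdt was higher (71.1% passed, 35.2% higher and 35.9% lower). At WT D8, 6 were lower, Brdt was higher and Tuba3b did not pass (76.8% passed, 37.8% higher and 39% lower). From WT D6 to WT D8, Taf7l (1.52, adjusted p = 0.0407) and Tuba3a (1.60, adjusted p = 0.0463) were higher in edgeR and 6 did not pass, where 57% of all genes passed, 26.6% higher and 30.4% lower. Without WT D8 replicate 1, or without WT D8 replicate 2, 0 genes passed in edgeR, and without WT D6 replicate 2, 1 passed. These were steps from 5 counts to 16 for Taf7l and from 5 to 17 for Tuba3a over 2 libraries each.

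In TKO, D2 gave Tex101 (3.25) and Taf7l (0.94) higher, Dpep3 (-1.42) and Tuba3a (-1.40) lower and 4 that did not pass, where 53.6% of all genes passed, 26.6% higher and 26.9% lower. At TKO D4, Dazl (0.97), Tex101 (3.04) and Brdt (1.28) were higher, Tuba3a was lower and 4 did not pass (66.5% passed, 34.4% higher and 32.1% lower). At TKO D6, 6 were higher, Tuba3a was lower and Dpep3 did not pass (71.9% passed, 36.1% higher and 35.8% lower). At TKO D8, 6 were higher, Tuba3a was lower and Dpep3 did not pass (65.1% passed, 34.2% higher and 30.8% lower). From TKO D6 to TKO D8, Dazl (-1.24), Tuba3b (-0.96), Sohlh2 (-0.73) and Brdt (-0.64) were lower and 4 did not pass (50% passed, 24.5% lower). Fits that left out both TKO D8 libraries, or both WT D0 libraries, changed no count of calls between the genotypes at the days they could be run for.

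Whether the genotype difference itself changed from D0 was tested by the interaction of genotype with day. At D2 it had widened for Tex101 and Sohlh2 and narrowed for Tuba3a, and 5 did not pass, where 18.4% of all genes passed, 9.7% upward and 8.74% downward. At D4 it had widened for Dazl, Tex101, Taf7l, Sohlh2 and Tuba3a, and 3 did not pass (22.5% passed, 11.9% upward). At D6 all 8 passed upward, Brdt included (1.18, SE 0.359, adjusted p = 0.0187, edgeR), where 30% of all genes passed and 15.8% upward. For Brdt the difference had closed and not widened, from -1.02 at D0 to 0.16 at D6, a value that did not pass. At D8, 7 passed upward and Brdt did not pass (0.10, adjusted p = 0.845, edgeR), where 52.3% passed and 29.3% upward.

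A wider list of 36 other germline genes, all tested, gives the surroundings of the 8. Of these, 24 were higher, 8 lower and 4 did not pass at D0 in TKO (median log2 fold change 0.94), and 25 were higher and 3 lower at D2 (1.22). At D4, 31 were higher and 3 lower (2.38), and at D6 and at D8, 33 were higher and 1 lower (4.51 and 5.39 with genes at 0 set to their bound). Dmc1, a recombinase of meiosis, was the gene that was lower at D6 (-0.88), and Tdrkh, a piRNA pathway gene, the one at D8 (-0.73). Over all genes tested, 19.4%, 18.4%, 15.1%, 20.9% and 35.8% were higher from D0 to D8. The shares that were lower were 19.9%, 16.9%, 13.2%, 20.3% and 31.8%. The list was written with earlier results of these libraries known and is no independent evidence of its direction.

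The 6 members of that list with the largest change at D0 were also higher in TKO at D6. Asz1, a piRNA pathway gene of germ cells, was at 0 CPM in WT and 19.8 CPM in TKO at D6. Fkbp6, which also serves the piRNA pathway, was at 0.16 and 53.2 CPM (log2 fold change 8.36), and Tktl2, a transketolase-like gene, was at 0 and 10.9 CPM. Magea4, a cancer-testis gene on the X chromosome, was at 0 and 1.47 CPM, below its 5.48 CPM in TKO stem cells, Pet2 at 0 and 2.54 CPM, and 1700013H16Rik at 0.0813 and 5.25 CPM (5.98). Some meiosis genes were lower in TKO stem cells and higher at later days. Sycp3, of the synaptonemal complex, was at 48.5 CPM in WT and 8.60 CPM in TKO at D0 (-2.49) and at 0.695 and 6.25 CPM at D8 (3.15). Stra8, which starts meiosis, was at 5.84 and 1.37 CPM at D0 (-2.09) and at 1.22 and 10.1 CPM at D4 (3.05). It was already higher at D2 (2.04). At D6 and D8 Stra8 was near the floor, with WT at 0 counts and lower bounds of only 1.88 and 2.75. Tdrd1, of the piRNA pathway, was lower at D0 (-3.73), D2 (-2.76) and D4 (-2.96) but not higher late. It did not pass at D6 (-0.08) or D8 (0.10). Sycp3, Stra8 and Tdrd1 were named after their values were seen.

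**Figure D4:**
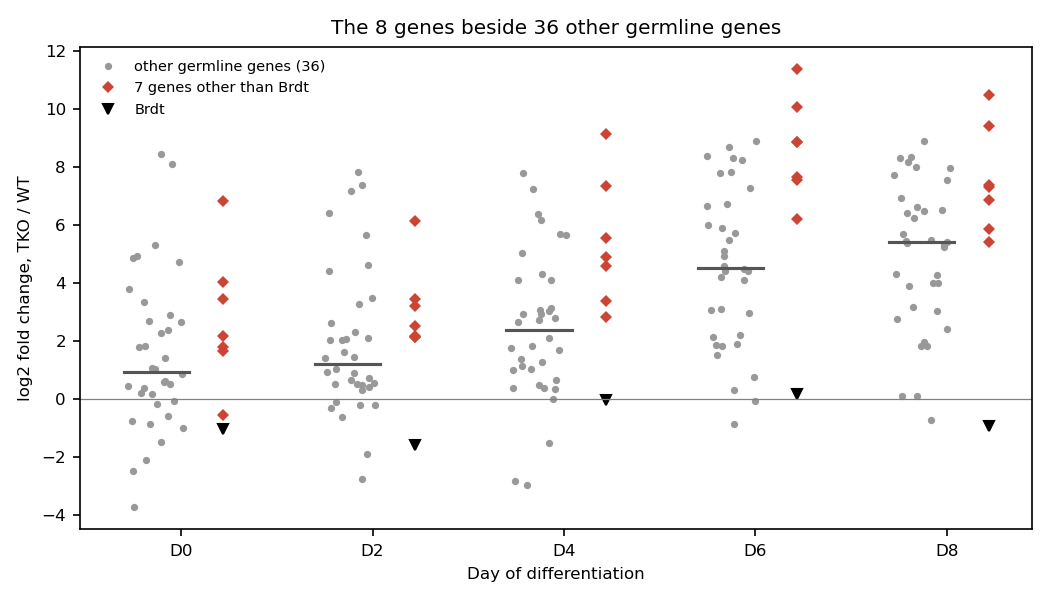
Log2 fold change of TKO against WT by day for the 36 other germline genes (grey points, with their median as a line), for 7 of the 8 genes (red diamonds) and for Brdt (black triangle), with genes at 0 counts in WT set to their lower bound. The median of the grey points moves from 0.94 at D0 to 5.39 at D8, and Brdt lies near or below 0 at each day.

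Of 24 genes for silencing of germline promoters, 5 were higher, 8 lower and 11 did not pass at D0. Their median log2 fold change was -0.11, and 19.4% of all genes tested were higher and 19.9% lower at D0. Members of the E-box complex went both ways at D0. Mga was higher in TKO (0.37, 326 and 423 CPM), E2f6 (-0.26) and Max (-0.18) were lower, and Pcgf6 (-0.15) and Setdb1 (-0.07) did not pass. Of the related subunits Yaf2 and Rybp, the latter named after its values were seen, Yaf2 was higher (0.44) and Rybp lower (-0.43). Dnmt3l, the cofactor of the de novo enzymes, was higher at 537 against 164 CPM (1.71), and Mbd2, a reader of methylated DNA, was lower (-0.56). At D6, E2f6 (-0.42), Max (-0.21) and Setdb1 (-0.26) were lower, and Mga and Pcgf6 did not pass. Uhrf1, which guides Dnmt1 to replicated DNA, was higher at D0 (0.25) and D8 (1.06), with 24.25% of its 31-mers shared.

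Markers of germ cells as a cell type were read beside these genes. Of 13 tested markers of primordial germ cells, 2 were higher and 5 lower in TKO at D0. At D6, 12 were higher and 1 did not pass, and at D8, 11 were higher and 1 lower. The shares over all genes tested were 19.4% higher and 19.9% lower at D0. They were 20.9% and 20.3% at D6, and 35.8% and 31.8% at D8. Prdm1 and Prdm14, which specify germ cells, were at 35.3 and 44.6 CPM in WT stem cells and at 37.8 and 26.9 CPM in TKO. At D6 they were at 0.925 and 0.11 CPM in WT and at 4.08 and 1.51 CPM in TKO. Ddx4, the helicase Vasa, was at 1.26 CPM in WT and 29.9 CPM in TKO at D6 (4.57), and Dppa3 at 0.183 and 1.48 CPM (2.94). Nanos3 was at 0.71 and 1.496 CPM (1.07). Of 14 tested germ cell transcription factors, 1 was higher and 4 lower at D0, and 7 were higher and 1 lower at D6. Dmrt1, a factor of germ cells and Sertoli cells, was at 38.7 CPM in WT and 22.8 CPM in TKO at D0 (-0.77), and at 0.273 and 5.61 CPM at D8 (4.32). The summed level of the 14 listed markers at D6 was 66.3 to 72.8 CPM in WT and 193.0 to 205.0 CPM in TKO. Many of them also belong to stem cells, and the part of germ-cell-like cells in the result was not tested.

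Of 12 markers of haploid spermatids, 4 were tested. At D0, 1 was higher and 1 lower in TKO, and at D6, 2 were higher and 2 did not pass. At D8, 2 were higher and 1 lower. For all genes tested, 19.4% were higher and 19.9% lower at D0. These shares were 20.9% and 20.3% at D6, and 35.8% and 31.8% at D8. Spaca1, an acrosome gene named after its values were seen, was at 0 CPM in WT and 0.916 CPM in TKO at D6 (edgeR adjusted p = 3.28e-05). Catsper1, Akap4 and Smcp were at 0 in all 10 groups. The sum of the 12, 168 to 379 CPM, was nearly all Odf2, a centrosome gene that dividing cells express. Of 11 tested markers of gonad somatic cells, 4 were higher and 1 lower at D0. At D6, 3 of them were higher and 2 lower, and at D8, 3 were higher and 4 lower. The summed level of the 12 listed was 56.6 to 60.3 CPM in WT and 62.4 to 73.5 CPM in TKO at D6. The receptor gene Fshr was at 0 in WT and at a mean of only 0.029 CPM in TKO at D6.

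Markers of cell identity also differed between the genotypes, in ways that depended on the list and the day. Across all genes tested, 19.4% were higher and 19.9% lower in TKO at D0. The same shares were 20.9% and 20.3% at D6, and 35.8% and 31.8% at D8. Of 10 pluripotency markers, 7 were higher and 3 lower in TKO at D6, and 9 were higher and 1 lower at D8. The median log2 fold change of the 10 was 3.32 at D6, where Pou5f1 was at 4.4 CPM in WT and 49.8 CPM in TKO and Nanog at 2.58 and 25.95 CPM. The sums at D6 went the other way, with 967 to 974 CPM in WT and 656 to 834 CPM in TKO, since they are mostly Lin28a (701 and 437 CPM) and Sox2 (240.5 and 147 CPM), which were lower in TKO (-0.68 and -0.71). Nanog and Lin28a, and Fabp7, Dcx, Elavl3, Neurog2 and Neurod4 below, were named after their values were seen. All 10 neural markers were lower in TKO at D8, where their sums were 3918 to 3989 CPM in WT and 1188 to 1204 CPM in TKO. At D6, 5 neural markers were higher, 3 lower and 2 did not pass. The neuronal tubulin Tubb3 (0.61), Map2 (1.29), Fabp7 (1.31), Dcx (1.06) and Elavl3 (0.65) were higher at D6. Nes (-0.31), Pax6 (-0.72) and Neurog2 (-1.64) were lower, and Sox1 (-0.07) and Neurod4 (-0.42) did not pass. All 10 endoderm markers were higher in TKO at D0, where their sums were 185 to 225 CPM in WT and 3278 to 3452 CPM in TKO. At D6, 8 endoderm markers were higher and 2 did not pass, with sums of 640 to 732 CPM and 1741 to 1916 CPM. At D8, 5 endoderm markers were higher, 1 was lower and 4 did not pass. Their median log2 fold change was 3.80 at D0, with genes at 0 in WT set to their bound, 2.22 at D6 and 0.52 at D8. The part of these cell types in the levels of the 8 genes was not tested. Markers of 2-cell-like cells, of which 5 were tested, summed to at most 0.49 CPM in TKO from D4 on.

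Across the 10 group means of log2(CPM + 1), the other genes of the group followed Dazl with a Pearson r of 0.963 for Sohlh2, 0.96 for Tuba3b, 0.955 for Taf7l, 0.947 for Dpep3, 0.937 for Tuba3a and 0.851 for Tex101, and with -0.315 for Brdt. These points share libraries and fall into 2 genotypes, so r is a description. Likeness to Dazl was read over 12510 tested genes whose highest group mean was at least 5 CPM. Gm and Rik names and clone names such as AC numbers were left out. Those outside the 8 that were most like Dazl were AU022751 (0.995), Otud6a (0.993), AI481877 (0.983), Gpat2 (0.979), Zfp264 (0.975) and Uba1y (0.972). AU022751 had means of 0.0454 CPM in WT and 45.7 CPM in TKO at D6. Zfp264 and Uba1y share 11.41% and 60.31% of their 31-mers with other genes.

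The nearest protein-coding genes on either side differed in both directions. Those of Tex101, Lypd3 and BC049730, were not tested. Rftn1, 88721 bases from Dazl, was higher in TKO at D0 (log2 fold change 0.75) and D8 (0.58) and lower at D6 (-0.68). Plcl2 on the other side was higher at D0 (1.38), did not pass at D6 (-0.11) and was lower at D8 (-0.41). Drp2, 3545 bases from Taf7l, was higher at D0 (2.00) and D6 (0.72) and lower at D8 (-0.88). Timm8a1, on the other side of Taf7l, was higher at D0 (0.28) and D8 (1.49) and did not pass at D6 (-0.03). Dclk1, next to Sohlh2, was higher at D0 (1.83) and lower at D8 (-1.87), and Ccdc169 on the other side did not pass at D0, D6 or D8. Slc12a4, 7416 bases from Dpep3, did not pass at D0 (-0.18) or D6 (-0.03) and was higher at D8 (0.45). Both neighbours of Brdt were higher in TKO at D0 and D6, Tgfbr3 by 2.55 and 0.69 and Ephx4 by 1.05 and 1.23, and Ephx4 also at D8 (1.66). Beside Tuba3a, Vamp1 was lower at D0 (-0.68), D6 (-0.83) and D8 (-0.77), and Ltbr did not pass at D0 (-0.11) and was higher at D6 (0.86) and D8 (0.92). Lmntd1, 1438 bases from Tuba3b, was at a mean of at most 0.524 CPM in every group and was lower at D6 (-1.86). Rassf8, on the other side of Tuba3b, was lower at D0 (-0.36), D6 (-1.08) and D8 (-0.56).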

How the data were processed

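Stranded libraries of polyadenylated RNA (TruSeq, per the labels' protocols) were made from the 20 samples, 2 per genotype and day. The deposited tables give, per the file headers, for 119414 transcripts the length, the effective length, the estimated count and TPM. Per the submitters' processing notes, the authors used Trim Galore 0.6.2 and kallisto with GRCm38, without a version of kallisto. The estimated counts were deposited by the authors without scaling to depth, and the deposited TPM values are scaled per length and library. The transcript set used is not given in the sources used here, nor is the setting of kallisto.

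Transcripts were matched by identifier to GENCODE M21 (116728 matched, 2686 not, with 0.943% to 1.099% of the counts of a library). For each gene the estimated counts of its transcripts were added up and then rounded, and so was TPM, unrounded. One fit of all 20 libraries and 10 groups was made with edgeR 4.0.16 (TMM, filterByExpr, quasi-likelihood F test, Benjamini-Hochberg over 18555 genes, threshold 0.05), with 10 residual degrees of freedom and a common biological coefficient of variation of 0.0689. It was tested on simulated data. Each SE is the absolute log2 fold change divided by the square root of its F statistic. Folds against 0 counts are bounds against 3 counts over the group, and counting intervals are at 95% and cover counting error only. Promoter letters come from RefSeq (GRCm38.p6), in which all 8 genes were matched, and 31-mers from GENCODE M21. Motif counts use 250 bases upstream.

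The members, lists and tests were chosen with earlier results of these data known. By the rule for names, all 8 genes, their paralogs, nearest protein-coding neighbours and the 6 genes most like Dazl were described, with up to 6 genes per list by size of change at D0 and a fixed set of silencing factors and markers, of which some are left out of the text. List genes Meiosin, Dux and Taf7l2 were not matched by name. Alternatives were relative log expression scaling, no filter, a block on replicate number, length-scaled TPM turned to counts, an adjusted p under 0.01, DESeq2 1.42.0, fitting the compared groups by themselves, leaving out each library, and the tubulin pair summed. Fits without the TKO D8 or the WT D0 libraries were added after the data were seen.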

Additional observations from a re-analysis of the deposited data

Results flagged for a closer look

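The change from D0 differed between TKO and WT in 23 tests of the interaction of genotype with day, each at an edgeR quasi-likelihood adjusted p under 0.05, and the values are log2 differences of fold changes, positive where TKO gained on WT. At D2 they were 2.70 for Tex101, 0.51 for Sohlh2 and -1.51 for Tuba3a. At D4 they were 3.87 for Dazl, 3.92 for Tex101, 1.03 for Taf7l, 3.23 for Sohlh2 and 1.5 for Tuba3a. At D6 they were 7.93 for Dazl, 5.74 for Taf7l, 1.18 for Brdt, 7.18 for Sohlh2 and 4.82 for Tuba3a, and fitted values that depend on the prior count, since WT was at 0, were 11.79 for Tex101, 7.58 for Dpep3 and 6.82 for Tuba3b. At D8 they were 5.95 for Dazl, 7.40 for Tex101, 4.07 for Taf7l, 5.64 for Sohlh2 and 3.33 for Tuba3a, with 6.66 for Dpep3 on 0 WT counts and 3.65 for Tuba3b on 1. Tuba3a at D2 is the one value below 0. All share the D0 libraries, so they are not independent of each other.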

How the results depend on the processing

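Of 534 fold changes of the 8 genes between TKO and WT under the settings run, 531 kept their side of the threshold. The other 3 lost their call (Brdt at D0 under 2 settings and Dpep3 at D2, given above). None changed direction where either fit called the gene, and changes of direction without a call were not counted. The count of the 8 genes called between the genotypes moved by at most 1 under every setting run. In WT, D2 against D0 gave 2 calls, 0 at an adjusted p under 0.01, 0 with only the compared groups fitted, and 1 to 2 when leaving out each library. D6 against D0 in WT gave 8 calls, and 5 with only the compared groups. D8 against D6 in WT gave 2 calls, 0 at an adjusted p under 0.01, 1 without the filter, 1 in DESeq2, 0 with only the compared groups, and 0 to 3 when leaving out each library. Where a group was left with 1 library, it was assumed to vary like the other groups. The replicate number as a block gave 1 call for D8 against D6 in WT and changed the count of calls in no other comparison. Replicate differences of WT and TKO at the same day had a Pearson r between -0.023 and 0.029, so the numbers do not pair the samples. The cause of these losses was not tested. Depth limits the size of late differences, since WT held 0 to 25 counts per gene, Brdt apart, at D6 and D8.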
